A study of Mus musculus with 37 samples.

Results

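The lymphoid-rich libraries are the lung RNA libraries of the silicon and mock + NR groups in which Ccl19 exceeded 100 CPM (the count of a gene over the total count of its library, times 1000000). Of the 12 libraries in these groups, 3 passed this limit: silicon replicate 3, silicon replicate 6 and mock + NR replicate 4. They are 3 of the 37 libraries of the series, and no library of the other groups passed the limit. They are compared with the other 9 libraries of the same groups, and the 25 libraries of the remaining groups are shown beside them. The members were thus chosen by their Ccl19 count, and because of this every difference between the 3 and the 9 is a description. Counts of genes called at an adjusted p under 0.05 in this contrast appear only to show how it moves with the processing, and they are no test.

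The series measured RNA from the lungs of C57BL/6 mice, with 1 library per mouse, by SMART-seq v4 cDNA synthesis and Nextera XT library preparation. The silicon mice (3 male, 4 female) received 0.75 Gy of silicon ions at 300 MeV/u, and the mock + NR mice (4 male, 1 female) received 0 Gy and were given 12 mM nicotinamide riboside (NR), a precursor of the coenzyme NAD, in their drinking water. The 25 remaining libraries came from mock mice at 0 Gy (5 male, 2 female), mice given the same silicon dose with NR (silicon + NR; 4 male, 2 female), and mice given 0.75 Gy of 5-ion simulated galactic cosmic radiation (GCR; 3 male, 4 female) or of caesium gamma rays (gamma; 3 male, 2 female), both without NR. NR was given from before the exposure onwards. Silicon replicate 3 and mock + NR replicate 4 came from males and silicon replicate 6 from a female. The sources used here give no age, no time from exposure to dissection and no piece of lung taken, and nothing says whether lymph nodes were left on the tissue.

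Lymph nodes and other organised lymphoid tissue keep B cells in follicles and T cells in a zone around them. Stromal cells lay out this pattern with chemokines: Ccl19 and Ccl21 attract cells with the receptor Ccr7, and Cxcl13 attracts cells with Cxcr5. Lymphocytes enter from the blood through high endothelial venules, whose walls carry sulfated and fucosylated mucins such as Glycam1. Lymphotoxin from lymphocytes signals to stroma through the lymphotoxin receptor and the non-canonical NF-kB pathway and keeps stroma and venules in this state. Such tissue is found in the nodes at the lung root and can also form along the bronchi.

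The label was set beside several cell compartments, as a description. Cxcl13 of stroma, Glycam1, Fut7 and Madcam1 of venules, and the defining B and T cell genes lay above all of the other 9 libraries in all 3. The gene lists were chosen with earlier results of these data known, so these positions are no test of the label. Madcam1 was so low in the 9 that it could pass the filter on low counts only through the 3. Chst4, also a defining venule gene, overlapped with the 9. Ccl19 chose the libraries and checks nothing. Ccl21a, Ccl21b and Ccl21c, near-identical copies, were listed at 0 in every library and check nothing. Immunoglobulin constant and variable genes and the T cell receptor constant genes were not analysed here. Total counts were 26610652 to 28401443 in the 3 libraries, 26531179 to 32362923 in the other 9 and 9485197 to 66381526 in the 25. Lung tissue was present in all 3, with Scgb1a1, the secretory protein of club cells, at 58945 to 219430 CPM. Other tissue differed between the libraries: Acta1, the actin of skeletal muscle, was at 403 CPM in silicon replicate 3, 9179 in silicon replicate 6 and 2.87 in mock + NR replicate 4, and over 1000 CPM in 6 of the other 9. In bulk tissue, more cells of a type and more RNA per cell cannot be told apart.

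A few genes serve to show what regulatory sequence stands before members of the lymphoid program. The 250 bases before the start site of each are given 5′ to 3′ from RefSeq (GRCm38.p6), because Ccl19 chose the libraries, Glycam1 had the highest fold difference, and Madcam1, Ubd and Ltb moved with them and hold a match to an NF-kB motif. For Ccl19 and Ltb the RefSeq start lies inside the gene as GENCODE gives it, so these windows overlap the GENCODE gene. The motif searched was GGG, then any 3 bases, then TTCC, on both strands, in a window from 250 bases before to 50 bases after the start, and matches are in capitals. The windows lie at chr4:42756366-42756615 (minus strand, Ccl19), chr15:103565082-103565331 (minus, Glycam1), chr10:79664309-79664558 (plus, Madcam1), chr17:37193642-37193891 (plus, Ubd) and chr17:35194257-35194506 (plus, Ltb).
Ccl19: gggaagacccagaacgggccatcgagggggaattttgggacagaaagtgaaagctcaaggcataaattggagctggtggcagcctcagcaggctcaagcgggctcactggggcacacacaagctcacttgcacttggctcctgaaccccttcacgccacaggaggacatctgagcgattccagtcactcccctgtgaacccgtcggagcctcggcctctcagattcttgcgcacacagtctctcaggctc
Glycam1: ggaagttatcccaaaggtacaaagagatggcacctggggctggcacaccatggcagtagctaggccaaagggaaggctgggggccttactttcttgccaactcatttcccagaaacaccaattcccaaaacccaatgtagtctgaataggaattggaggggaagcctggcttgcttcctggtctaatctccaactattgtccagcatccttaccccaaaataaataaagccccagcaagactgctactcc
Madcam1: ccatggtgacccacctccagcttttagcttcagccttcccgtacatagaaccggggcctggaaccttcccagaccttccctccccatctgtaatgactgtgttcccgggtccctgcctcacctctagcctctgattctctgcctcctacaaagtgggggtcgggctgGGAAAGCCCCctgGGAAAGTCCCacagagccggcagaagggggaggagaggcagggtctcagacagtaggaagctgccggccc
Ubd: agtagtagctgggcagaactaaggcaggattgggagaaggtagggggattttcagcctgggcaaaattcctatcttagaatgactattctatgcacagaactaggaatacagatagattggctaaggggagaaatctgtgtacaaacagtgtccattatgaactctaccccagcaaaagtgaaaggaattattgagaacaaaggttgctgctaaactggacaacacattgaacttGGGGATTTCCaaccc
Ltb: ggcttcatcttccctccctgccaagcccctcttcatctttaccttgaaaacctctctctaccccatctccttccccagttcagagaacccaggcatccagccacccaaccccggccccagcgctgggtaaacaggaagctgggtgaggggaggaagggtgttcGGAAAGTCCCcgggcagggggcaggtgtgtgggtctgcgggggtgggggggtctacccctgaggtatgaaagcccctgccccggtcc
Madcam1 holds 2 matches, which begin 83 and 70 bases before the start, Ubd holds 1 that begins 15 bases before it, and Ltb 1 that begins 87 bases before it. The Ccl19 and Glycam1 windows hold no match of these letters. Of all 27025 genes with a RefSeq promoter, 1704 (6.31%) hold a match, against 7 of 18 lymphotoxin and non-canonical NF-kB genes with a sequence and 7 of 37 genes of the lymphoid stroma and high endothelial venule lists. The 7 of the stroma and venule lists are Cxcl1, Il6, Madcam1, Fut4, Ubd, Sdc4 and Lepr. Of these, only Madcam1 and Ubd lay above all of the other 9 libraries in all 3. The 7 lymphotoxin and non-canonical NF-kB genes are Ltb, Nfkb2, Traf2, Traf3, Chuk, Tnfaip3 and Nfkbia, and all but Chuk did. With or without a match, 17 of the 21 tested genes of that list did, as did 7 of 20 stromal and 7 of 23 venule genes. Of all genes tested, 14.4% did so. Whether a match goes with a difference between the libraries was not tested. A match is a run of letters and not a shown binding site.

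Ccl19 (chromosome 4, 42754525 to 42756577 in mm10, minus strand), the chemokine of the T cell zone, was at 447 CPM in silicon replicate 3, 232 in silicon replicate 6 and 419 in mock + NR replicate 4. The other 9 libraries ran from 1.73 to 15.6 CPM with a median of 5.79, and the 25 from 1.37 to 21.4 with a median of 5.93. The library nearest to the limit from below within the 12 was silicon replicate 7 at 15.6 CPM, so no library stood near 100 CPM on either side. Glycam1 (chromosome 15, 103562759 to 103565081, minus strand), the mucin of high endothelial venules, was at 48.9, 492 and 77.6 CPM in the same order. In the other 9 it ran from 0 to 4.14 CPM with a median of 0.189, and in the 25 from 0 to 1.60 with 10 libraries at 0. The plot of both genes by group shows that the order of the 3 libraries differed between them: silicon replicate 6 was lowest for Ccl19 and highest for Glycam1.

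**Figure D1:**
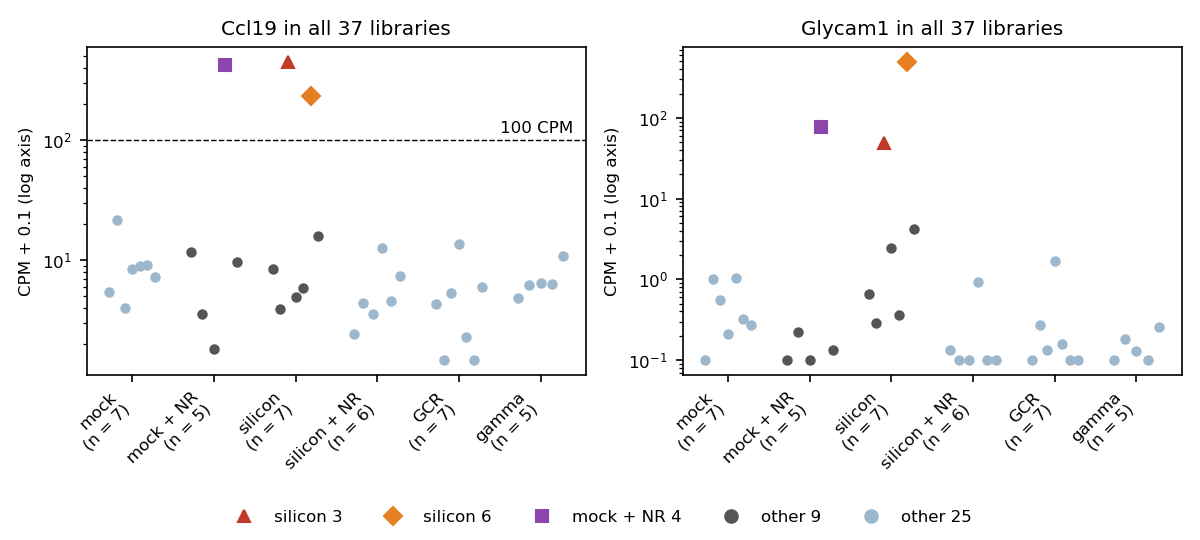
Ccl19 and Glycam1 in each of the 37 libraries by group, in CPM with 0.1 added on a log axis; each point is 1 library, coloured shapes are the 3 lymphoid-rich libraries and the dashed line is the limit of 100 CPM. The 3 libraries sit at 232 to 447 CPM of Ccl19, and every other library lies at or below 21.4.

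The venule genes were high only in part. Madcam1, the addressin that binds integrin alpha4 beta7, was at 12.6, 11.8 and 9.91 CPM in silicon replicate 3, silicon replicate 6 and mock + NR replicate 4, against 0 to 0.224 in the other 9. Fut7, a fucosyltransferase of venule mucins, was at 7.18, 7.59 and 5.93 CPM against 0.0927 to 0.878. Ubd, a ubiquitin-like modifier induced by inflammatory cytokines, was at 48.9, 41.9 and 37.9 CPM against 0.284 to 5.05. These 3 genes did not overlap with the other 9, and all were also above the 25. Chst4, the sulfotransferase of venule mucins, did overlap, at 5.77, 13.6 and 9.097 CPM against 0.301 to 11.7. Of the 23 genes of the venule list, 7 lay in all 3 libraries above all 9 (Glycam1, Madcam1, Ubd, Fut7, Ackr1, Chst2 and Enpp2), where 14.4% of the 16699 genes tested did so and 0.269% lay below all 9. These shares are background only, since the same contrast chose the libraries. The list median was a log2 fold change of -0.03, beside -0.12 over all genes tested, and its general endothelial members Cd34, Podxl, Emcn and Vwf had negative values. Fits used TMM scaling with group as covariate, and the fitted log2 difference was 8.19 (SE 0.95) for Glycam1 and 6.75 (SE 0.54) for Madcam1, both dependent on the prior count because of the low values in the 9.

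Stromal chemokines and cytokines formed a small set within a mixed list. Cxcl13, the chemokine of the follicle, was at 270, 124 and 176 CPM in the 3 libraries, against 6.84 to 70.6 with a median of 20.5 in the other 9. Tnfsf11, the ligand of the receptor RANK that marginal stromal cells make, was at 16.02, 6.13 and 8.58 CPM against 0.149 to 0.896. Il7, a survival factor for lymphocytes, was at 15.4, 9.88 and 17.5 CPM against 2.69 to 7.62. No library of the 9 reached the 3 for these genes. Ccl19 is left out of the counts. Of the 20 stromal genes tested 7 (35%) lay above all 9, beside 14.4% of all genes tested. Cxcl13, Tnfsf11 and Il7 were joined by Grem1, Bst1, Vcam1 and Clu. Clu, a secreted chaperone, was at 1060, 1058 and 682 CPM, above the 9 (140 to 620) but not above the 25, whose highest value was 2152. Vcam1 and Bst1 were not above all of the 25 either. Of the 20 stromal genes tested 4 lay above all 34 other libraries, beside 5.93% of all genes tested. Receptors and general fibroblast genes did not lie above the 9. Ltbr, the lymphotoxin receptor, was at 39.6, 59.1 and 54.1 CPM, within the range of 41.6 to 70.6 of the 9 or below it. The Ccl21 copies, at 0 in all libraries, are not among the 20.

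Follicular dendritic cells hold antigen for B cells on complement and Fc receptors. Their scavenging protein Mfge8 was at 916, 598 and 548 CPM, against 47.9 to 223 in the other 9 and up to 266 in the 25. Cr2, a complement receptor shared with B cells, was at 143, 58.02 and 80.1 CPM against 1.43 to 18.7. Of the 13 genes of this list 7 lay above all 9 and 5 above all 34 other libraries, beside 14.4% and 5.93% of all genes tested. Of the 7, 5 (Cr2, Fcer2a, Cxcl13, Enpp2 and Madcam1) are in the B cell, stromal or venule lists as well.

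B cell genes were higher as a block. Cd79a, the signalling chain of the B cell receptor, was at 552, 218 and 235 CPM in silicon replicate 3, silicon replicate 6 and mock + NR replicate 4, and from 1.39 to 69.7 with a median of 22.9 in the other 9. Ms4a1, the CD20 antigen, was at 326, 135 and 104 CPM against 0.451 to 61.5. All 3 libraries were above all 9 for each of these genes, and silicon replicate 3 was the highest. Of the 27 B cell genes measured, 25 lay above all 9 and 24 above all 34 other libraries, beside 14.4% and 5.93% of all genes tested. The exceptions were Vpreb3 (122, 72.7 and 94.9 CPM against 12.8 to 117) and Ebf1 (51.1, 34.6 and 25.7 against 4.02 to 36.9). The list median was a log2 fold change of 2.97, with a range from 0.22 to 3.66.

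Genes of the germinal centre, where B cells mutate their receptors, were less uniform. Il21 and Pdcd1, genes of follicular helper T cells, were in silicon replicate 3, silicon replicate 6 and mock + NR replicate 4 at 4.23, 1.69 and 0.957 CPM against 0.036 to 0.659, and at 31.2, 11.7 and 7.77 against 0.263 to 3.26. Bcl6, the master factor of the germinal centre, which other lung cells also make, was at 49.2, 37.1 and 38.7 CPM and overlapped with the 26.2 to 52.6 of the 9. S1pr2 overlapped too, at 27.2, 20.03 and 12.7 CPM against 7.97 to 19.4. In all, 7 of the 13 genes tested lay above all 9, beside 14.4% of all genes tested. Each of the 13 was highest in silicon replicate 3.

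Plasma cell genes did not separate the libraries. Jchain, which joins IgA and IgM chains, was at 347, 283 and 599 CPM, against 5.86 to 580 with a median of 229 in the other 9. Of the 9 genes of the list only Irf4 (11.1%, beside 14.4% of all genes tested) lay above all 9 libraries. Irf4, which T and B cells also use, was at 25.1, 14.7 and 14.4 CPM against 1.05 to 6.99. Xbp1, the factor of secretory cells, was at 221, 259 and 224 CPM within a range of 162 to 323.

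T cell genes had the largest list median, a log2 fold change of 3.51. Cd3e, a chain of the T cell receptor complex, was at 110, 47.3 and 54.2 CPM in silicon replicate 3, silicon replicate 6 and mock + NR replicate 4, against 0.902 to 7.01 in the other 9. Cd4 was at 55.8, 32.8 and 28.9 CPM against 1.05 to 4.92, and Cd8b1, the CD8 beta chain, at 93.4, 51.1 and 49.4 against 0 to 2.76. The fitted log2 difference was 5.59 (SE 0.58) for Cd8b1, 4.08 (SE 0.45) for Cd3e and 3.55 (SE 0.40) for Cd4. All 29 measured genes of the list lay above all 9 libraries, and 28 of them above all 34, beside 14.4% and 5.93% of all genes tested. Foxp3, the factor of regulatory T cells, was at 14.05, 7.03 and 5.41 CPM against 0.111 to 1.098.

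Cytotoxic genes were higher in part. Nkg7, a granule protein of NK and CD8 T cells, was at 107, 49.7 and 56.2 CPM against 0.864 to 11.4, and Il2rb at 81.2, 38.3 and 28.7 against 1.16 to 7.18. The granzymes Gzma (3.91, 10.8 and 3.28 CPM against 0.216 to 6.27) and Gzmb (1.16, 4.06 and 0.479 against 0.154 to 1.66) overlapped with the 9. Of the 14 genes tested in this list 11 lay above all 9, beside 14.4% of all genes tested. Klra4 and Klra8 were at 0 or had 1 count in the 3 libraries.

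Homing receptors for the chemokines named above were high. Ccr7, the Ccl19 receptor, was at 232, 160 and 128 CPM against 0.939 to 9.28 in the other 9. Cxcr5, the Cxcl13 receptor, was at 85.9, 39.4 and 33.1 CPM against 2.82 to 14.5. Neither these receptors nor Ccl5, a chemokine that T cells secrete (429, 176 and 265 CPM against 2.01 to 12.8), overlapped with the 9. S1pr1, which guides egress and is also an endothelial gene, did overlap at 140, 174 and 105 CPM against 21.04 to 107. In this list 15 of 23 genes lay above all 9, beside 14.4% of all genes tested. Ccl20, Ccl17 and Cxcl10 were among those that did not.

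Both lymphotoxin genes and most of their pathway list lay above the other 9, whereas the receptor Ltbr and the kinase Chuk did not. Ltb, lymphotoxin beta, was at 369, 162 and 197 CPM in silicon replicate 3, silicon replicate 6 and mock + NR replicate 4, against 5.11 to 33.3 in the other 9. Lta, the partner subunit, was at 29.5, 15.8 and 15.7 CPM against 0.263 to 3.999. Relb, the subunit of the non-canonical NF-kB dimer, was at 129, 77.7 and 68.5 CPM against 13.7 to 25.996, and Nfkb2, which gives its partner, at 127, 80.9 and 60.95 against 16.5 to 36.8. The fitted log2 fold change was 3.65 (SE 0.38) for Ltb, 1.94 (SE 0.16) for Relb, 1.37 (SE 0.20) for Nfkb2, 0.77 (SE 0.18) for the kinase Map3k14 and -0.33 (SE 0.15) for the receptor Ltbr. Of the 21 genes 17 lay above all 9, beside 14.4% of all genes tested. The exceptions were Ltbr, Tnfrsf1a, Chuk and Bcl3.

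**Figure D2:**
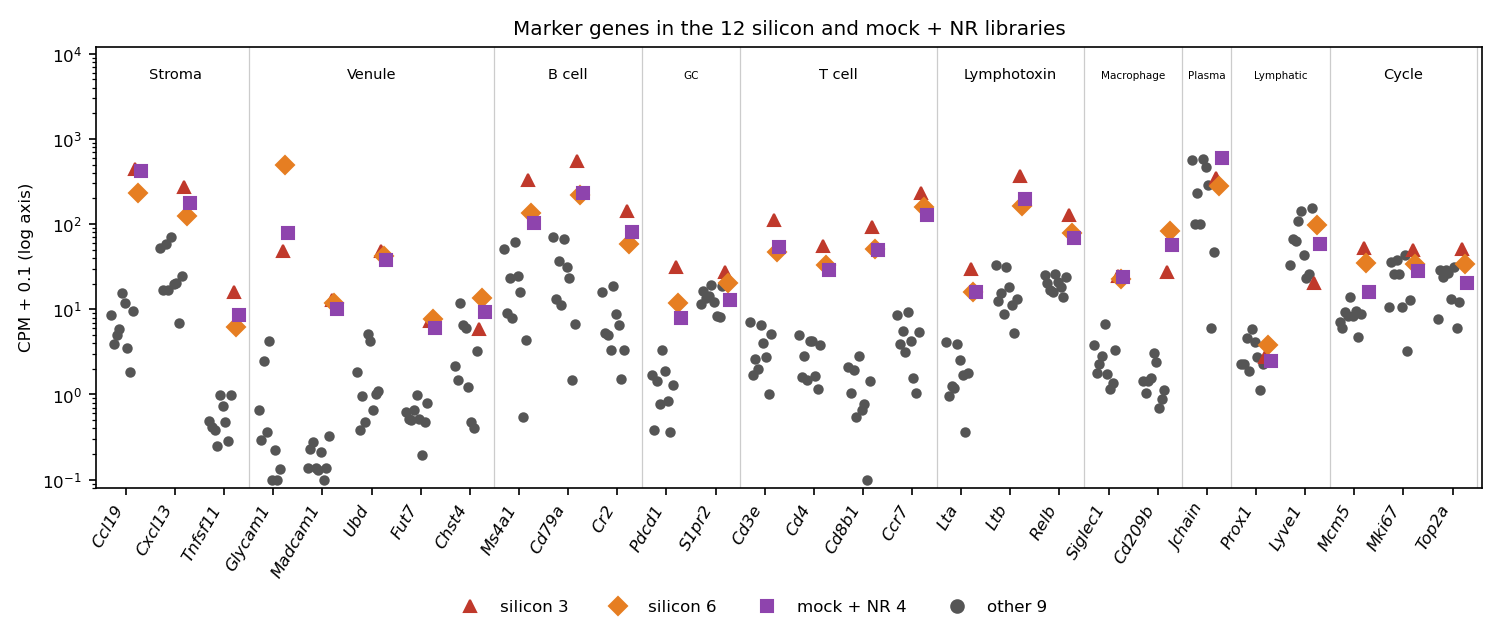
CPM with 0.1 added, on a log axis, of marker genes in the 12 silicon and mock + NR libraries; each point is 1 library, coloured shapes are the 3 lymphoid-rich libraries, and GC stands for germinal centre and Cycle for cell division. Cd3e, at 47.3 to 110 CPM in the 3, is separated from the other 9, whereas Jchain, Prox1, Mki67 and Top2a overlap.

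Genes of antigen presentation were higher too. Cd74, the invariant chain of MHC class II, was at 5053, 2451 and 2089 CPM against 261 to 1182 in the other 9. H2-Eb2 was at 35.4, 7.52 and 16.98 CPM against 0.225 to 3.104. All 12 MHC class II genes lay above all 9, beside 14.4% of all genes tested, with a list median of 1.98. Of 16 dendritic cell genes 11 did, among them Fscn1, an actin bundler of mature dendritic cells, at 135, 39.01 and 64.9 CPM against 2.29 to 7.62.

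Macrophage genes of lymph node sinuses were present in all 3 libraries. Siglec1, the sialoadhesin of subcapsular macrophages, was at 24.6, 22.7 and 23.7 CPM against 1.05 to 6.65. Cd209b, a lectin of sinus and marginal zone macrophages, was at 27.3, 83.3 and 57.2 CPM against 0.587 to 2.95, and Marco, a scavenger receptor of the same cells that alveolar macrophages also make, at 57.4, 77.6 and 73.1 against 0.376 to 9.41. Silicon replicate 3 was the lowest of the 3 for Cd209b and Marco, unlike in the B and T cell lists. The other alveolar macrophage genes did not move with Marco: it was the only 1 of 13 that lay above all 9, and Siglecf was at 0.458, 1.24 and 1.33 CPM against 0.0927 to 1.54. Of the sinus macrophage list 7 of 11 genes lay above all 9, beside 14.4% of all genes tested.

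Among cell division genes, most of the Mcm helicase genes separated the 3 libraries from the other 9, but not from the 25, and most others did neither. Mcm5, a subunit of the replicative helicase, was at 52.9, 35.3 and 15.8 CPM against 4.58 to 13.8, and Mcm3 at 59.1, 37.5 and 25.2 against 5.49 to 18.5. Mki67, the Ki-67 antigen, was at 49.1, 33.5 and 28.03 CPM against 3.16 to 43.7 with a median of 26.2. Top2a, the topoisomerase of dividing cells, was at 50.5, 34.2 and 20.4 CPM against 5.86 to 30.9. Of the 6 Mcm genes 5 lay above all 9, and Mcm2 missed by little (17.7 CPM in mock + NR replicate 4 against a highest value of 17.8). Of the other 32 division genes 3 (9.38%) did (Pcna, Tyms and Rrm2), below the 14.4% of all genes tested. Above all 34 other libraries lay 0 of the 6 Mcm genes and 1 of the other 32, beside 5.93% of all genes tested. Summed over the 6 Mcm genes the 3 libraries had 353, 242 and 140 CPM, against up to 167 in the 25. Mock + NR replicate 4 had the lowest of the 3 values for Mcm5, Mki67 and Top2a. The list median was 0.53, and 35 of the 38 genes were highest in silicon replicate 3. This split of the list was chosen after its values were seen.

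**Figure D3:**
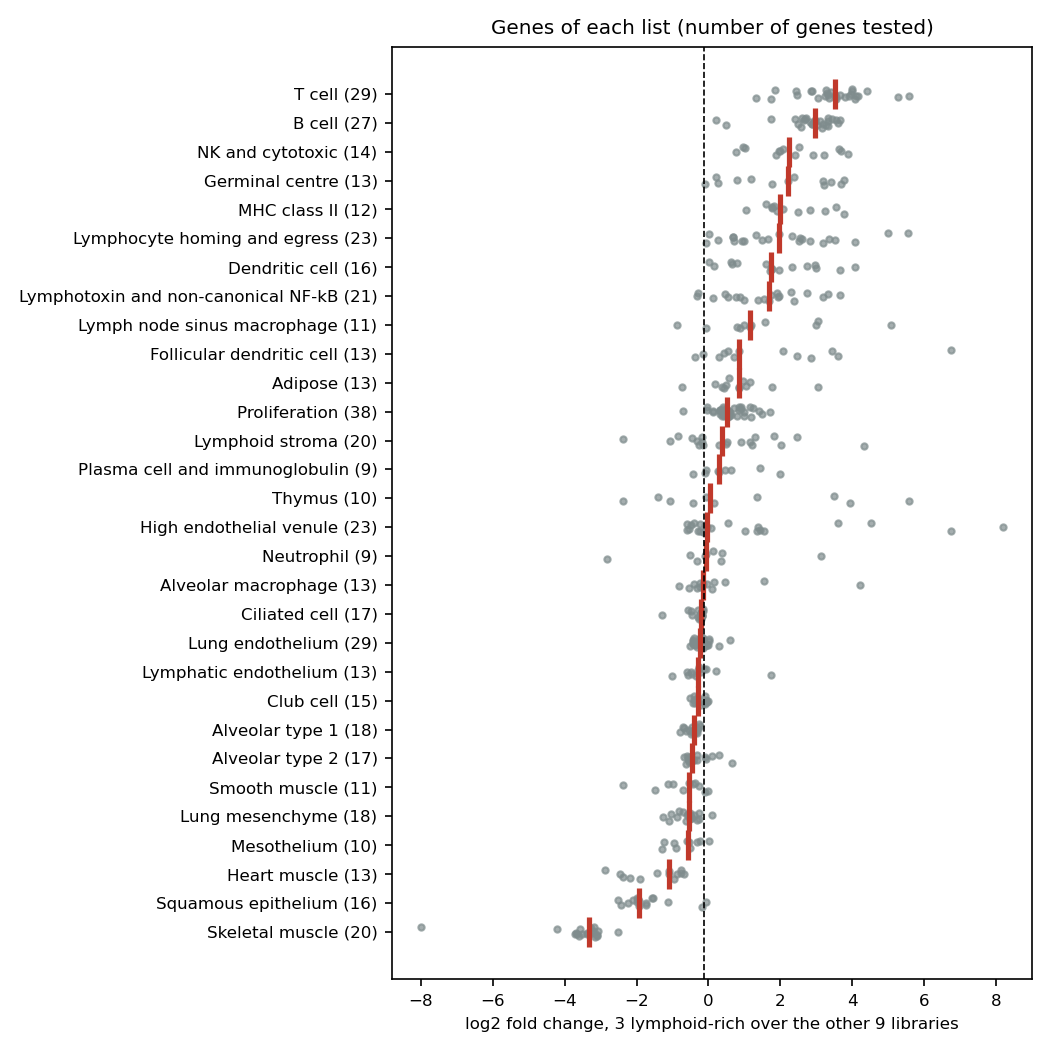
Fitted log2 fold change of each tested gene, 3 lymphoid-rich over the other 9 libraries, by gene list; grey points are genes, red bars list medians and the dashed line the median of all genes tested at -0.12. T and B cell genes lie to the right with medians of 3.51 and 2.97, and venule and stromal lists spread widely around 0.

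The highest differences outside Ccl19 came from several cell types. Among genes whose mean log2 CPM was 2 or more, the 12 highest fitted values were those of Glycam1, Il22ra2, Apol7c, Cd8b1, Ccl5, Cd8a, Cd209b, Ccr7, Izumo1r, Ubd, Ubash3a and Marco. Il22ra2, a soluble decoy receptor for interleukin 22, was at 37.01, 57.3 and 51.2 CPM against 0.0377 to 1.003 in the other 9, a log2 difference of 7.14 (SE 0.47). Apol7c, of the apolipoprotein L family, was at 168, 71.8 and 90.4 CPM against 0.442 to 3.68. Izumo1r, the folate receptor 4 of regulatory and follicular helper T cells, was at 39.9, 16.7 and 16.5 CPM against 0 to 1.79. No library of the 9 reached the 3 in any of the 12. The 12 lowest values were those of Myl2, Myh2, Lrrc30, Vgll2, Ankrd2, Tnni1, Ppp1r27, Pvalb, Cyp1a1, Tnnt1, Myl10 and Mylk2, nearly all genes of striated muscle, and all of these overlapped. Myh2, a fast myosin, was at 1.303, 4.51 and 0 CPM against 0.0377 to 2544, with a median of 6.43, and its log2 difference was -7.99 (SE 3.53).

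Markers of other tissues were read in the same way. Of the 10 thymus markers tested, 4 lay above all 9 and also above all 34 (Cd8b1, Dntt, Aire and Ly75). Of all genes tested, 14.4% and 5.93% did so. Among the other genes of that list, Ptcra was at 0 in all 3 libraries, Rag1 had 0, 2 and 2 counts, Psmb11 had 1, 1 and 2 against 0 in all 9, and Foxn1 had 22 counts in silicon replicate 6 and 0 in the others, where a count of 0 allows up to 0.106 and 0.1105 CPM (3 counts, counting error only). Dntt was detected at 1.14 to 1.62 CPM and Aire, which some lymph node cells also make, at 3.24, 0.752 and 2.39, both above the other 9 (at most 0.288 and 0.377). Prox1, the factor of lymphatic endothelium, was at 2.64, 3.72 and 2.36 CPM within the 1.01 to 5.71 of the 9, and of its list only Stab2 of 13 tested genes lay above them. Alveolar genes overlapped: Ager, a receptor of alveolar type 1 cells, was at 36.9, 928 and 279 CPM against 53.4 to 896, and Sftpc, surfactant protein C, at 325, 8624 and 3479 against 307 to 13364.

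Of the 13 adipose genes, 12 had a positive log2 fold change, and all overlapped with the 9. Ucp1, the uncoupling protein of brown fat, was at 149, 112 and 33.8 CPM, against 0.0354 to 55.4 with a median of 0.284 in the other 9 and up to 807 in the 25. Summed over the 13 adipose genes the 3 libraries had 2038, 2802 and 1277 CPM, against 67.9 to 4014 with a median of 728 in the 9 and 122 to 17550 in the 25. The list median was 0.85. The summed adipose level was thus above the median of the 9 in each of the 3, within their range, and the part of adipose tissue in the differences was not tested. At an adjusted p under 0.05, in the contrast that chose the libraries, 1377 genes (8.25% of those tested) were called higher and 177 (1.06%) lower, and with the adipose level as covariate 728 and 26.

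The 3 libraries differed among themselves. Summed over 27 B cell genes they had 4643, 1904 and 1920 CPM, and summed over 29 T cell genes 1794, 979 and 940, in the order silicon replicate 3, silicon replicate 6 and mock + NR replicate 4. All 27 B cell, all 29 T cell and all 12 MHC class II genes were highest in silicon replicate 3, with median log2 differences of -1.29 and -0.86 for the B and T cell lists from that library to silicon replicate 6. Most of the venule list had another order, with 15 of 23 genes highest in silicon replicate 6. Glycam1, Fut7 and Chst4 were among these, whereas Madcam1 and Ubd were highest in silicon replicate 3. The list also holds general endothelial genes such as Cd34 and Vwf. Highest in silicon replicate 6 were also 28 of the 29 lung endothelial genes and 20 of 20 skeletal muscle genes. The plot of summed list levels shows silicon replicate 3 apart in the lymphocyte lists and lowest of the 3 for lung endothelium and alveolar type 1 cells.

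**Figure D4:**
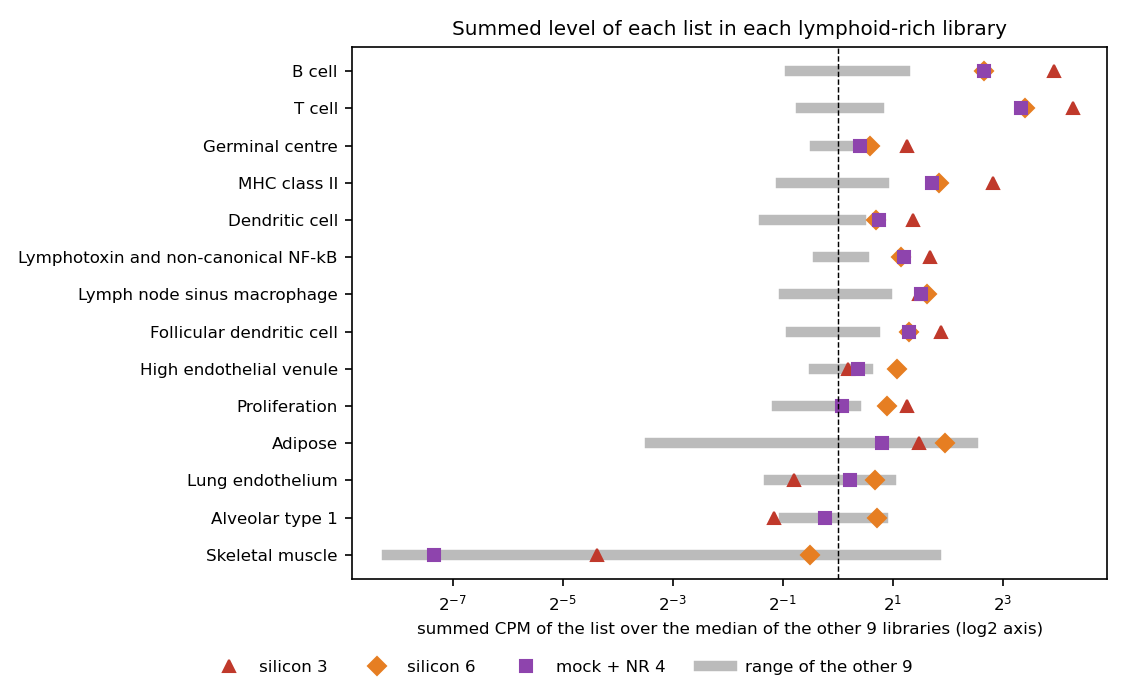
Summed CPM of each gene list in the 3 lymphoid-rich libraries, divided by the median of the other 9, on a log2 axis; the grey bar is the range of the other 9 and the dashed line their median. The B and T cell lists lie beyond the bar in all 3 libraries, and the adipose and skeletal muscle lists lie within it.

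B cell counts made up 72.1% (95% exact interval 71.9% to 72.3%) of the summed B and T cell list counts in silicon replicate 3, 66.05% (65.7% to 66.4%) in silicon replicate 6 and 67.1% (66.8% to 67.4%) in mock + NR replicate 4. The intervals cover counting error only. In the other 9 this share ran from 64.5% to 83.6% with a median of 79.0%, and in the 25 from 63.7% to 82.7%, so the 3 lay within both ranges. Counts of Cxcl13 were 0.605, 0.536 and 0.419 times those of Ccl19, against 1.69 to 12.1 times in the 9 and 0.75 to 8.56 in the 25. The 3 were chosen for high Ccl19 and the 9 for low Ccl19. Since Ccl19 is the divisor, this choice bears on the ratio of the 3 against both the 9 and the 25. Counts of Glycam1 were 0.109, 2.12 and 0.185 times those of Ccl19.

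Whether lymphoid genes go with Ccl19 where no library passes the limit was tested in the 25 libraries of the groups not used by the rule. In edgeR's quasi-likelihood test, with group and sex as covariates, the slope of each gene on log2(CPM of Ccl19 + 0.5) was called at an adjusted p under 0.05 for 33 genes with a positive slope (0.194% of 17040) and for 0 with a negative one (1933 at an unadjusted p under 0.05 in either direction). DESeq2 called 92 and 16. Ccl19 ranged from 1.37 to 21.4 CPM over these libraries. The slope is the log2 change of a gene for each doubling of Ccl19.

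B cell genes were the most frequent list members among the 33, of which 14 were in any list. Of 27 B cell genes 6 were called, beside 0.194% of all genes, and 25 had a positive slope, with a list median of 0.57 beside -0.00039 over all genes. Cd79a ran from 2.11 to 62.9 CPM (median 16.0) with a slope of 1.29 (SE 0.21, adjusted p = 0.0060). Cd72, an inhibitory B cell receptor, had a slope of 1.10 (SE 0.16, adjusted p = 0.0036), and Pou2af1, the coactivator of B cell transcription, 1.10 (SE 0.17, adjusted p = 0.0052). Cd22, Spib and Cd37 were the other B cell genes called. H2-DMb2, which loads MHC class II molecules, had a slope of 1.37 (SE 0.20, adjusted p = 0.0036), the steepest of the called genes above that expression level.

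T cell, stromal and lymphotoxin genes were called one by one. Of 29 T cell genes, Cd4 (slope 0.90, SE 0.13, adjusted p = 0.0036) and Cd3g (0.70, SE 0.14, adjusted p = 0.027) were called, and the list median was 0.32 with 25 of 29 slopes positive. Cxcl13, with 1.03 to 54.4 CPM, was the only stromal gene of 20 that was called (0.97, SE 0.20, adjusted p = 0.033), and 14 of the 20 slopes were positive. Ltb, with 2.81 to 39.05 CPM, was the only 1 of 21 called in its list (0.78, SE 0.13, adjusted p = 0.011), where 14 of the 21 slopes were positive. Cxcr3 and Pdcd1, receptors that T cells carry, were also called, with slopes of 1.15 (SE 0.21, adjusted p = 0.016) and 1.35 (SE 0.26, adjusted p = 0.023).

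Several genes with the widest gaps between the 3 and the 9 did not pass in the 25. Ccr7 had a slope of 0.22 (SE 0.22, adjusted p = 0.765), Cd209b 0.13 (SE 0.34, adjusted p = 0.93) and Marco -0.24 (SE 0.30, adjusted p = 0.81). Glycam1 had a slope of 1.70 (SE 0.47, adjusted p = 0.21) at 0 to 1.60 CPM, a level at which 10 of 25 libraries had no count. No gene of the venule, sinus macrophage or cell division lists was called, where 0.194% of all 17040 genes were called higher. Of the 22 venule slopes 16 were positive and 5 had an unadjusted p under 0.05 in the edgeR test. The counts were 10 and 3 of 11 for sinus macrophage genes and 23 and 4 of 38 for cell division genes. Over all 17040 genes they were 8508 and 1933. Madcam1 was too low in the 25 for the filter.

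**Figure D5:**
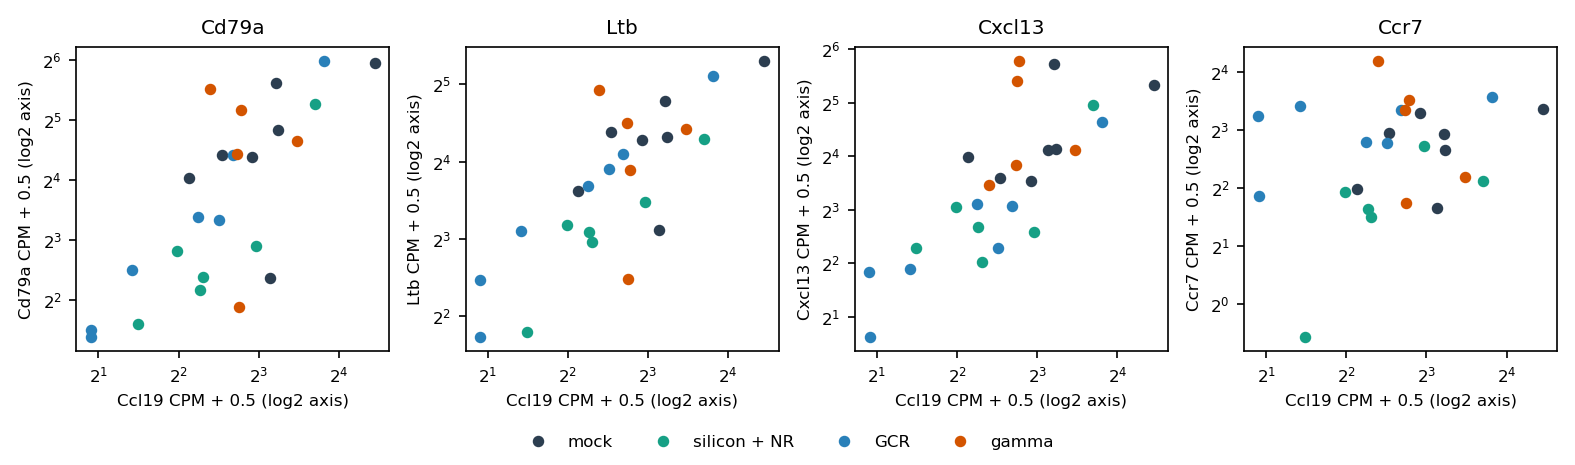
Cd79a, Ltb, Cxcl13 and Ccr7 against Ccl19 in the 25 libraries of mock, silicon + NR, GCR and gamma, in CPM with 0.5 added on log2 axes; each point is 1 library. Cd79a, Ltb and Cxcl13 rise with Ccl19 (slopes of 1.29, 0.78 and 0.97) and Ccr7 does not pass the test.

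These calls rest on few libraries. The count fell to 0 without GCR replicate 4, to 4 without silicon + NR replicate 4, to 13 without mock replicate 2 and to 21 without GCR replicate 2. It was 2 without the libraries over 1000 CPM of Acta1, and 0 within mock and silicon + NR alone and within GCR and gamma alone. The slope of Cd79a lay between 1.15 and 1.39 over the 25 fits without 1 library each. The lowest Ccl19 values, 1.37 and 1.38 CPM, were those of GCR replicates 6 and 2, in which the ribosomal precursor Rn45s took 189818 and 216521 CPM, and without the 4 libraries over 100000 CPM of Rn45s 52 genes were called.

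The comparisons of the study's groups that contain these libraries were fitted over all 37 libraries with sex as covariate. In silicon against mock, edgeR called 0 genes (0% of 17120), with 2204 at an unadjusted p under 0.05, and the B and T cell list medians were log2 fold changes of 2.04 and 1.93 beside 0.07 over all genes. Cd79a had a log2 difference of 2.33 (SE 0.87, adjusted p = 0.20) and Cd3e of 2.47 (SE 0.77, adjusted p = 0.13). At an adjusted p under 0.05 DESeq2 called 22 of 152 members of the lymphoid lists (B cell, germinal centre, T cell, stroma, follicular dendritic cell, venule, lymphotoxin and homing) higher and 3 lower, where it called 92 of all 17339 genes (0.531%) higher and 340 (1.96%) lower. Without the 3 lymphoid-rich libraries edgeR again called 0 genes, with 1337 at an unadjusted p under 0.05, the 2 list medians were 0.44 and -0.32, and the value of Cd3e was -0.15 (SE 0.43, adjusted p = 0.95). The sign of the T cell median thus differed with and without these libraries, which were themselves chosen by Ccl19.

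In mock + NR against mock, which uses the same mock mice, edgeR called 0 genes (2888 at an unadjusted p under 0.05) and DESeq2 called 0 of 150 lymphoid members higher and 4 lower, where it called 234 of all 16092 genes (1.45%) higher and 338 (2.1%) lower. The B and T cell medians were 0.71 and 1.14 with mock + NR replicate 4, and -0.57 and -0.54 without the 3 libraries. Cd3e was at 1.59 (SE 0.80, adjusted p = 0.32) with and at -0.39 (SE 0.47, adjusted p = 0.79) without the 3. Ltb was at 1.15 (SE 0.74, adjusted p = 0.48) with and at -0.67 (SE 0.48, adjusted p = 0.54) without them.

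In silicon + NR against silicon, which uses the same silicon mice as the first comparison, edgeR called 0 genes (2191 at an unadjusted p under 0.05, smallest adjusted p 0.067), and DESeq2 called 60 of 152 lymphoid members lower and 0 higher, where it called 331 of all 17755 genes (1.86%) lower and 32 (0.18%) higher. The B and T cell medians were -3.02 and -2.96. Without the 3 libraries they were -1.46 and -0.79, and 20 of the 27 B cell genes had an unadjusted p under 0.05, all of them above the adjusted threshold, where 893 of all 17029 genes had such a p. Cd79a was at -3.71 (SE 0.98, adjusted p = 0.074) with them and at -2.07 (SE 0.82, adjusted p = 0.80) without. The edgeR count depended on single libraries: of 160 lymphoid members, 54, 54, 40 and 53 were called lower without silicon replicates 1, 2, 4 and 5 in turn, where 259, 244, 126 and 213 of all genes were. It was 42 without mock + NR replicate 3 and 56 without mock + NR replicate 4 (134 and 267 of all genes). These libraries are in neither group and enter only through the shared fit: the gene filter, the scaling, the estimate of spread and the sex term. The count was 0 without each of the other 19 libraries of mock, silicon, mock + NR and silicon + NR.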

How the data were processed

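Whole lung RNA of 37 mice was sequenced. The build mm10 and the tools STAR 2.5.2, HTSeq 0.13.5, Trimmomatic 0.36, MultiQC 1.12 and FastQC 0.11.4 were used, per the submitters' processing notes; the sources used here give no options, annotation or strand setting. The deposited values are whole-number read counts per gene symbol (24421 symbols), made by the authors. Counts without molecular identifiers carry amplification error, and total counts ran from 9485197 to 66381526.

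From these counts CPM was computed over column sums. edgeR 4.0.16 in R 4.3.3 (TMM, filterByExpr, quasi-likelihood, Benjamini-Hochberg over all genes tested) fitted 3 against 9 libraries with group as covariate, the slope on Ccl19 in 25 libraries with group and sex, and the groups over all 37 libraries with sex. Standard errors come from the log2 fold change and its F value. DESeq2 1.42.0 was an alternative, as were RLE size factors, no filter, other covariates and pseudocounts, and leaving out libraries. The members and the 33 gene lists were chosen with earlier results of these data known.

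Named genes are Ccl19, Glycam1, fixed defining markers, the 4 most abundant members of each list, the 12 highest and 12 lowest of the 12-library fit and the 8 steepest called slopes; further list members were named as examples after their values were seen. Receptor and immunoglobulin segment shares, planned for the composition, were not analysed here, and a few genes of the lists are not reported here. No pair of libraries of a group agreed within sampling noise: the chi-square of each pair was at least 19.2 times its degrees of freedom. Each library is 1 mouse, so replicates are animals. Gene positions come from GENCODE M21 and promoters from RefSeq, matched by symbol.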

Additional observations from a re-analysis of the deposited data

Results flagged for a closer look

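Of 20 genes checked within silicon (7 libraries) and mock + NR (5 libraries), 40 checks in all on log2(CPM + 0.5), 6 had 1 library that stood apart from the rest of its group by more than Dixon's 95% limit, which chance alone exceeds in about 1 in 20 groups. In mock + NR, replicate 4 was the library apart for Glycam1 (77.6 CPM, others at most 0.124), Madcam1 (9.91, others at most 0.224), Cd8b1 (49.4, others at most 1.34), Ccl5 (265, others at most 5.76) and Cd209b (57.2, others 0.587 to 2.34). It was chosen by its Ccl19, so these values are a description. In silicon, where replicates 3 and 6 are high together and neither can stand apart alone, the library apart was replicate 1 for Mki67, which had the lowest value (10.4 CPM, others 26.2 to 49.1).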

How the results depend on the processing

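Depth was alike in the 12 libraries. Known limits are their small number and mixed tissue: 3 libraries, chosen by 1 gene, differ also in muscle, adipose and alveolar content. Other limits were not tested. Counts of genes at an adjusted p under 0.05 in the contrast that chose the libraries describe it and are no test. Beside 1377 genes higher and 177 lower in the 3 libraries, DESeq2 gave 813 lower, silicon alone (2 against 5) 784 higher and 5 lower, the libraries under 1000 CPM of Acta1 (2 against 3) 511 and 91, and the adipose level as covariate, chosen after the data were seen, 728 and 26. Leaving out each library gave 703 to 1560 higher and 9 to 242 lower, the lowest of both without silicon replicate 3; without mock + NR replicate 4 18 were lower, without silicon replicates 2, 5 and 7 93, 69 and 116. Genes without overlap, 2407 higher and 45 lower, numbered 991 and 0 against all 34 other libraries, 4670 and 285 in silicon alone, 6281 and 1974 under the Acta1 limit, and 2434 to 3832 and 48 to 430 without each library, the highest without mock + NR replicate 4 and silicon replicate 6 (lower 80 without silicon replicate 4, 85 and 112 without mock + NR replicates 3 and 4); fewer libraries overlap less by construction.

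Beside the 33 positive and 0 negative slopes called at an adjusted p under 0.05, DESeq2 gave 92 and 16, no filter 1 negative, sex without group 253 and 900, leaving out GCR replicates 2 and 6 (farthest from the median of Ccl19) 10 positive, the Rn45s limit 52, the Acta1 limit 2, mock and silicon + NR alone 0, GCR and gamma alone 0. Added after the data were seen, both limits together gave 0 and TMM-scaled Ccl19 13. Leaving out each library gave 0 to 42 positive and 0 to 2 negative (1 without GCR replicate 1, 2 without mock replicate 4). Single slopes that changed sign were those of Ccr7 (-0.080 within GCR and gamma) and Mki67 (0.46 under both limits, 0.058 without silicon + NR replicate 1, and -0.34 to 0.058 over the fits without 1 library each), none of them called. The causes were not tested.

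Among the 160 lymphoid members tested, called 0 times by edgeR in each of the 3 group comparisons, DESeq2 (150 to 152 tested) called 22 higher and 3 lower in silicon against mock, 4 lower in mock + NR against mock and 60 lower in silicon + NR against silicon. Leaving out each of 25 libraries, of which 18 were added after the data were seen, gave 0 to 56 lower in the last, and 0 to 2 in the first and second, with 2 in both without mock replicate 6 (286 and 181 of all genes lower). No paired analysis was possible because replicate numbers follow accession order and name no shared litter or day.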
